A study of Homo sapiens with 18 samples.

Results

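The genes described here are the cytosolic heat shock proteins, the cochaperones that work with them and the heat shock transcription factors, a list of 44 gene names matched to the gene symbols of the deposited table. Of these, 42 had a row, among 13661 genes in all, and the names HSPB11 and DNAJA4 had none. The list, and the roles by which its genes are grouped below, were chosen with earlier results of these data known. All 42 passed the filter on low counts, a mean of at least 10 reads over the libraries and reads in each gradient, which kept 12720 genes of the table in all. The cells were HEK293, an established human embryonic kidney line, and every library used here came from cells given DMSO vehicle for 12 h. No heat treatment is described in the labels. Cytoplasmic lysates were spun through sucrose gradients, which separate mRNAs by how many ribosomes sit on them. Each gradient was divided into monosomes (a single ribosome), light polysomes and heavy polysomes, and RNA of each pool was sequenced. There were 3 gradients, labelled as biological replicates 1 to 3, and so 9 libraries. The labels give no separate origin of the cultures, so p-values measure the spread between these gradients. The other 9 libraries of the series, from cells given 100 µM minocycline for 12 h, were not analysed here.

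Heat shock proteins are molecular chaperones that bind unfolded segments of other proteins and are best known for their induction by heat. HSP70 binds clients in cycles of ATP hydrolysis that J-domain proteins start and nucleotide exchange factors end. HSP90 takes over partly folded clients such as kinases and steroid receptors, with cochaperones that load the client or set the pace of its ATP cycle. In unstressed, dividing cells the constitutive members serve the folding of newly made proteins.

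Sequences around the start codon are shown for the 4 genes with the highest mean ribosome load, for 2 of the 4 lowest and for the main HSP90 and HSP70 genes, because they let the mRNAs at the ends of the range be set side by side. Each runs 5′ to 3′ over the last 6 bases of the 5′ leader and the first 24 coding bases of the principal GENCODE release 29 transcript on GRCh38. Capitals mark the start codon.
FKBP4: gcggagATGacagccgaggagatgaaggcg
HSP90AA1: gccaagATGcctgaggaaacccagacccaa
HSPBP1: cggcccATGtcagacgaaggctcaaggggg
AHSA1: gagccgATGgccaagtggggtgagggagac
HSP90AB1: cctccgATGcctgaggaagtgcaccatgga
HSPA8: gcaaccATGtccaagggacctgcagttggt
HSPA1A: accggcATGgccaaagccgcggcgatcggc
HSPA1B: accggcATGgccaaagccgcggcgatcggc
BAG5: aaaagtATGgatatgggaaaccaacatcct
HSPB1: gccagcATGaccgagcgccgcgtccccttc
The FKBP4 window lies at chr12:2795134-2795163 on the plus strand and the AHSA1 window at chr14:77458184-77458213 on the plus strand. HSPBP1 lies at chr19:55279585-55279614 and BAG5 at chr14:103561141-103561170, both on the minus strand. HSPB1 lies at chr7:76302707-76302736, HSPA1A at chr6:31815751-31815780 and HSPA1B at chr6:31827945-31827974, all on the plus strand. The windows of HSP90AA1 (minus strand), HSP90AB1 (plus) and HSPA8 (minus) cross a splice junction and span chr14:102086355-102086991, chr6:44248074-44248653 and chr11:123061301-123062064. HSPA1A and HSPA1B have the same letters here. BAG1 is not shown because its annotated principal transcript starts at the first coding base, a CTG codon, and has no leader.

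HSPA1A and HSPA1B are neighbouring genes for the stress-inducible HSP70 with nearly the same sequence, which bears on how reads could be assigned to them. Their coding sequences are both 1926 bases long, differ at 4 bases and are 99.79% identical. The 75 coding bases from 1846 to 1920, counted from the first base of the start codon, hold 3 of these differences, which are in capitals.
HSPA1A: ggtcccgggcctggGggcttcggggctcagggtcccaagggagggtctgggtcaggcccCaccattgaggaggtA
HSPA1B: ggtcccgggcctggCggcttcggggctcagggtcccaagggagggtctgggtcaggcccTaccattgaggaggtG
The first lies at chr6:31817602-31817676 and the second at chr6:31829796-31829870, both on the plus strand, within the coding exon. Reads were 75 nt long. Of all 75-base windows of the HSPA1A transcript, 71.2% occur in a transcript of another gene, on either strand, and for HSPA1B the share was 73.2%. The other 8 of 10 members with at least 10% of their windows shared were BAG2 (42.4%), STUB1, DNAJC9, DNAJB6, DNAJC7, ST13, HSPA14 and CHORDC1 (12.5%). Counts of these 10 genes are uncertain, since no source used here says whether strand or reads with several matches were counted. The shares of windows do not measure how far the counts are affected. For 17 members no window was shared.

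The libraries held 13447139 to 24441159 reads in genes. The members took 0.209% to 0.251% of the reads in the monosome libraries, 0.492% to 0.794% in the light and 0.886% to 1.07% in the heavy polysome libraries. These are shares of reads before scaling, with no other genes set beside them. After the authors' scaling, the members' median log2 difference from monosomes was 0.01 for light and 0.83 for heavy polysomes. Over all genes kept it was 0.04 and 0.13. The library labelled light polysome, replicate 2, stood apart. Over the genes kept its log2 values correlated with r = 0.928 to 0.953 with the heavy polysome libraries and 0.889 to 0.899 with the other light ones. The counts of calls below are therefore also given without gradient 2. The authors scaled every library to the same typical gene, so a gene's percentage in a fraction and its ribosome load are relative to other genes, and a larger amount of RNA in a fraction cannot be seen.

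Mean ribosome load is the authors' estimate of the ribosomes per mRNA of a gene, the percentages of the gene in monosomes, light and heavy polysomes weighted by 1, 2.5 and 6. The members' loads lay mostly above the typical gene. Their median load was 3.75, against 3.21 over all genes kept. In gradients 1, 2 and 3 the members' medians were 3.70, 3.45 and 3.90, and those of all genes 3.17, 3.17 and 3.16. The members' median was the higher one in each gradient. Of the 42 members, 25 (59.5%) lay above the median gene in all 3 gradients, compared with 33.6% of all genes, and 6 (14.3%) lay below it in all 3, compared with 34.3%. The load of members was lowest in gradient 2 for 27 of the 42. That count was not made over all genes, so whether it is particular to the members was not tested.

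Each gene's log2 load was then compared with the median gene of its gradient by limma's moderated test over all 12720 genes, two-sided, with Benjamini-Hochberg adjustment and a threshold of 0.05. By this test 19 members (45.2%) had a higher load than the median gene, where 22.0% of all genes did, and 4 members (9.52%) had a lower one, where 24.7% of all genes did. The other 19 did not pass. The 19 were HSP90AA1, HSPA4, HSPA14, 8 J-domain proteins, 6 HSP90 cochaperones, HSPBP1 and BAG6. The 4 lower ones were HSPB1, BAG5, BAG1 and HSF1. Without gradient 2, 23 members were higher and 4 lower, where 29.1% and 28.0% of all genes were, and all 23 calls of the 3 gradients were kept. Without gradient 1 the counts were 11 and 3, where 9.89% and 17.0% of all genes were called. Without gradient 3 they were 14 and 6, where 14.4% and 23.2% were. Calls of CDC37, DNAJA2, DNAJB12, DNAJB6, HSPA14 and BAG6 were lost in each of these 2 fits, and those of DNAJA3, FKBP5 and HSF1 without gradient 1. The adjusted p-values of the lost calls ran from 0.0777 to 0.389 without gradient 1 and from 0.0694 to 0.217 without gradient 3. The call of BAG6 was also lost with weights of 1, 2 and 3 (adjusted p = 0.0526). That of DNAJB6 was also lost when the percentage in heavy polysomes took the place of load (adjusted p = 0.0986), without the filter on low counts (0.0510) and without limma's trend (0.0529).

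**Figure D1:**
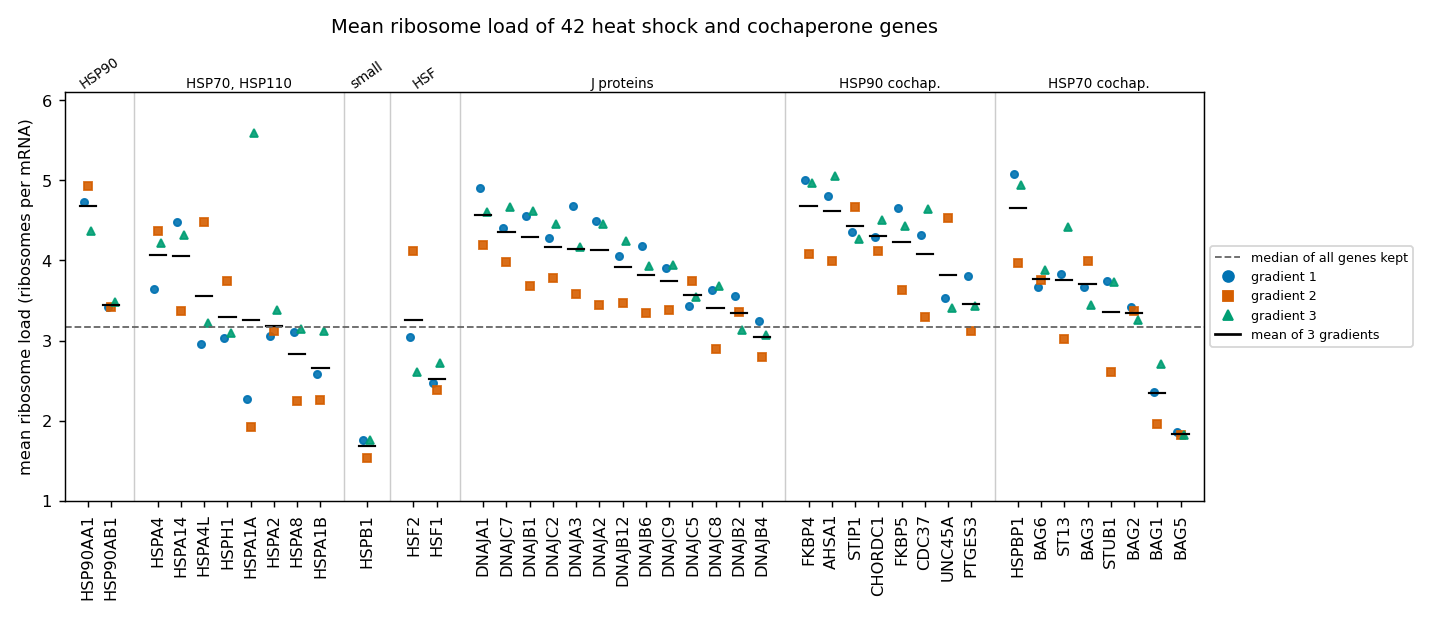
Mean ribosome load (ribosomes per mRNA) of the 42 members on the vertical axis, grouped by role along the horizontal axis, with a symbol per gradient and a bar at the mean of the 3. FKBP4, HSP90AA1, HSPBP1 and AHSA1 lie highest, HSPB1 and BAG5 lowest, far under the dashed median of all genes, and HSPA1A has the widest spread.

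The 2 cytosolic HSP90 genes differed in their distribution. HSP90AA1 encodes the stress-inducible HSP90 alpha. It had 14.5%, 4.12% and 17.2% of its normalized count in monosomes in gradients 1, 2 and 3, 15.4%, 24.7% and 22.0% in light and 70.1%, 71.2% and 60.9% in heavy polysomes. Heavy polysomes held the largest share in every gradient, and their shares did not overlap with those of the other fractions. Its load was 4.74, 4.93 and 4.37 in the 3 gradients, 4.68 ± 0.28 (SD, n = 3), at percentile 98.9 of the genes kept. Its log2 load exceeded the median gene by 0.56 ± 0.07 (SE, adjusted p = 0.000892). HSP90AB1 encodes HSP90 beta, the constitutive form. Its shares were 31.8%, 36.0% and 29.9% in monosomes, 28.4%, 22.2% and 29.2% in light and 39.8%, 41.7% and 40.9% in heavy polysomes. The 3 gradients gave nearly the same values, with heavy polysomes only slightly ahead, and its load was 3.42, 3.42 and 3.48. Its log2 load exceeded the median gene by 0.12, which did not pass the test (adjusted p = 0.267). Between the 2 genes the difference of log2 load, alpha minus beta, was 0.47, 0.53 and 0.33 in gradients 1, 2 and 3, 0.44 ± 0.10 (SD), with alpha higher in 3 of 3. For this and all other pairs no p is given, since 3 gradients cannot give an exact two-sided p under 0.25.

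Among the 8 genes of the HSP70 and HSP110 families, HSPA4 and HSPA14 (25.0%) had a higher load than the median gene, near the 22.0% of all genes. None had a lower one, where 24.7% of all genes did, and the median over the 8 was 3.27. HSPA4, an HSP110-type protein that exchanges the nucleotide of HSP70, had a load of 4.07 ± 0.38 (SD, n = 3). HSPA14, which works with a J protein at the ribosome, had 4.06 ± 0.60. HSPA8 is the constitutive HSP70, HSC70. It had 35.4%, 64.6% and 30.6% in monosomes, 32.0%, 15.0% and 37.8% in light and 32.5%, 20.4% and 31.6% in heavy polysomes. The fractions overlapped, with monosomes holding far more of it in gradient 2 than in the other gradients. Its load was 3.11, 2.24 and 3.15, which did not differ from the median gene by the test (log2 difference -0.18, adjusted p = 0.251). HSPH1 (HSP105), another HSP110-type protein, had 39.7%, 25.6% and 37.9% in monosomes, 28.2%, 27.8% and 29% in light and 32.1%, 46.6% and 33.1% in heavy polysomes. Heavy polysomes led in gradient 2 and monosomes in the others. Its load of 3.03, 3.75 and 3.09 did not pass the test either (adjusted p = 0.709). HSPA4L, a relative of HSPA4, had 2.96, 4.47 and 3.22, and HSPA2, known mainly from testis, had 3.05, 3.12 and 3.38 at 20 to 91 reads per library. HSPA4 minus HSPA4L was 0.30, -0.04 and 0.39 on the log2 scale, higher in 2 of 3 gradients.

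The stress-inducible pair HSPA1A and HSPA1B lay mostly outside light polysomes, with a spread that differed greatly between the 2 genes. HSPA1B had normalized counts of 4315, 2019 and 1808 in monosomes, 1052, 360 and 694 in light and 2034, 658 and 1471 in heavy polysomes. Monosomes held its largest share in all 3 gradients (58.3%, 66.5% and 45.5%) and light polysomes the smallest. Its log2 difference of light polysomes from monosomes was -1.97 ± 0.50 (SE, adjusted p = 0.0148). HSPA1A had 468, 294 and 11.3 in monosomes, 12.4, 2.10 and 16.4 in light and 159, 65.9 and 247 in heavy polysomes, from 217, 124 and 7 reads, 17, 3 and 22 reads and 194, 146 and 287 reads. The monosome library of gradient 3 stood far under the other monosome libraries, so its load was 2.27, 1.92 and 5.59, 3.26 ± 2.02 (SD, n = 3), the widest spread of any member. Light polysomes were low in every gradient.

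Those HSPA1A values rest on few reads and on single libraries. Its light over monosome difference was -3.73 ± 1.06 (SE, adjusted p = 0.0243), and the adjusted p became 0.0894 without gradient 1 and 0.113 without gradient 2. Its heavy over monosome difference was 0.21 with an SE of 1.06, and -1.85 (adjusted p = 0.0378) without gradient 3. In view of the shared sequence, both genes were also summed as 1 gene, an alternative chosen after seeing the data. The sum had loads of 2.56, 2.23 and 3.27, which did not pass the test against the median gene (log2 difference -0.26, adjusted p = 0.114). It was lower in light polysomes than in monosomes, with a log2 difference of -2.06 ± 0.51 (SE, adjusted p = 0.0125). Heavy polysomes and monosomes did not differ by the test for the sum (log2 difference -0.96, adjusted p = 0.130). For HSPA1B alone the heavy over monosome difference was -1.0, with an adjusted p of 0.111, and 0.0307 with the gradient as a block. Its light over monosome call was lost without gradient 1 (adjusted p = 0.0745). HSPA1A minus HSPA8 was -0.45, -0.22 and 0.83 and HSPA1A minus HSPA1B -0.19, -0.24 and 0.84 in log2 load, with both signs in each pair.

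**Figure D2:**
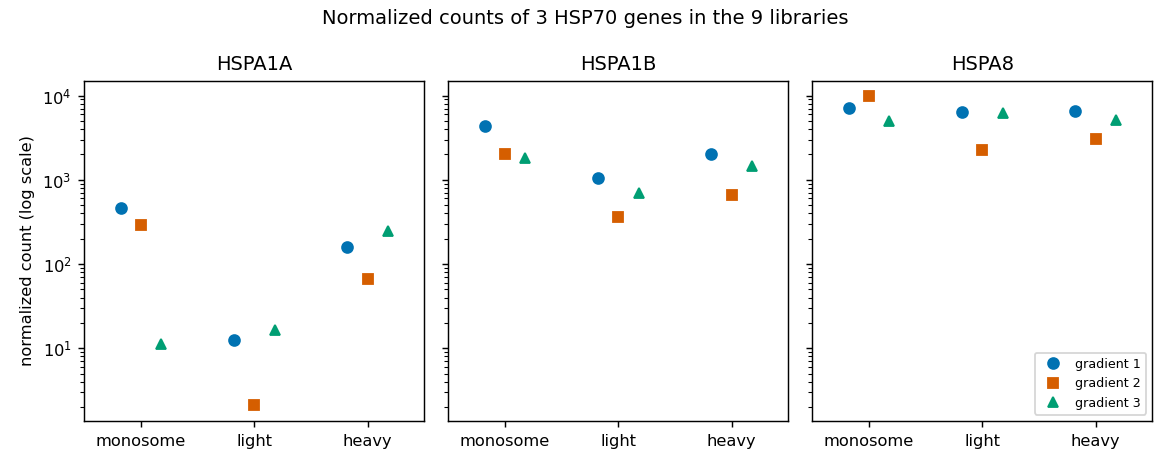
Normalized counts of HSPA1A, HSPA1B and HSPA8 (log scale, vertical axis) in the monosome, light and heavy polysome libraries (horizontal axis), with a symbol per gradient. HSPA1A is lowest in light polysomes in gradients 1 and 2, and its monosome library of gradient 3 lies near its light polysome values. HSPA8 is close to level across the fractions except in gradient 2.

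HSPB1, the small heat shock protein HSP27 that holds unfolded proteins without using ATP, had the lowest load of all members. Its normalized counts were 10266, 6807 and 8532 in monosomes, 2016, 702 and 1418 in light and 1470, 653 and 1290 in heavy polysomes. Monosomes held 74.7%, 83.4% and 75.9% of it in the 3 gradients and did not overlap with the other fractions, which were close to each other. Its load was 1.75, 1.53 and 1.76, 1.68 ± 0.13 (SD, n = 3), at percentile 2.94. The log2 load differed from the median gene by -0.92 ± 0.10 (SE, adjusted p = 0.000403). The log2 difference from monosomes was -2.97 ± 0.45 (SE, adjusted p = 0.000217) for heavy polysomes and -2.74 ± 0.45 (SE, adjusted p = 0.00122) for light polysomes. These 3 calls of HSPB1 were kept in every alternative fit.

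Of the 2 heat shock transcription factors, HSF1 had a lower load than the median gene and HSF2 did not pass the test. HSF1, the main activator of the heat shock response, had 37.1%, 61.3% and 36.1% in monosomes, 47.9%, 16.0% and 42.3% in light and 15.1%, 22.8% and 21.7% in heavy polysomes. Heavy polysomes held the least in gradients 1 and 3, and gradient 2 had more in monosomes and less in light polysomes than the others. Its load was 2.47, 2.38 and 2.72, lower than the median gene, with a log2 difference of -0.33 ± 0.09 (SE, adjusted p = 0.0212). That call did not hold without gradient 1 (adjusted p = 0.164). HSF2, which forms complexes with HSF1, had 41.4%, 18.3% and 53.6% in monosomes, 25.3%, 27.5% and 20.3% in light and 33.3%, 54.2% and 26.1% in heavy polysomes. Its gradient 2 was led by heavy polysomes and the others by monosomes, giving loads of 3.05, 4.12 and 2.61. HSF2 did not pass the test against the median gene (adjusted p = 0.930). Without gradient 2 it was lower in heavy polysomes than in monosomes, with a log2 difference of -0.67 (adjusted p = 0.0367), while with all gradients the difference was 0.07 (adjusted p = 0.901). HSF1 minus HSF2 was -0.30, -0.79 and 0.06 in log2 load, lower in 2 of 3 gradients.

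J-domain proteins bring clients to HSP70 and stimulate its ATPase. Of the 13 with a row, 8 (61.5%) had a higher load than the median gene, where 22.0% of all genes did. None had a lower one, where 24.7% of all genes did, and the median load of the 13 was 3.92. DNAJA1, a major cytosolic partner of HSP70, had 13.3%, 13.2% and 16.9% in monosomes, 12.3%, 32.7% and 15.7% in light and 74.4%, 54.2% and 67.4% in heavy polysomes. Heavy polysomes held the largest share in every gradient and did not overlap with the rest. Its load was 4.90, 4.20 and 4.61, above the median gene by 0.53 ± 0.08 (SE, adjusted p = 0.00142) in log2. DNAJB1 (HSP40), the heat-inducible J protein, had 18.7%, 27.3% and 16.0% in monosomes, 14.5%, 27.1% and 16.5% in light and 66.8%, 45.6% and 67.5% in heavy polysomes. Heavy polysomes again led in each gradient, least so in gradient 2. Its load was 4.56, 3.69 and 4.62, above the median gene by 0.43 ± 0.09 (SE, adjusted p = 0.00608).

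The other J proteins past the test were DNAJC7 (4.35 ± 0.34, SD, n = 3), which also binds HSP90, and DNAJC2 (4.17 ± 0.35), the ribosome-associated partner of HSPA14. They also included DNAJA2 (4.13 ± 0.60), a relative of DNAJA1, DNAJB6 (3.82 ± 0.43), a suppressor of protein aggregation, and 2 proteins known from other compartments. These were DNAJA3 (4.14 ± 0.55), which works mainly in mitochondria, and DNAJB12 (3.92 ± 0.40), which sits in the endoplasmic reticulum membrane with its J domain in the cytosol. The 5 that did not pass were DNAJC9 (3.74), a histone-binding protein, DNAJC5 (3.57), the cysteine string protein of secretory vesicles, DNAJC8 (3.40), which is linked to splicing, DNAJB2 (3.35), which also binds ubiquitin, and DNAJB4 (3.04). Without gradient 2, DNAJC8 and DNAJC9 also passed, with 10 of the 13 higher, where 29.1% of all genes were. Without gradient 1 the calls of DNAJA2, DNAJA3, DNAJB12 and DNAJB6 were lost, and without gradient 3 those of DNAJA2, DNAJB12 and DNAJB6. Of all genes, 9.89% were called higher without gradient 1 and 14.4% without gradient 3. DNAJB2 was led by light polysomes in all 3 gradients. In log2 load DNAJB1 exceeded DNAJB4, a J protein of the same class, by 0.49, 0.40 and 0.59 in the 3 gradients. DNAJA1 exceeded DNAJA2 by 0.13, 0.29 and 0.05.

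**Figure D3:**
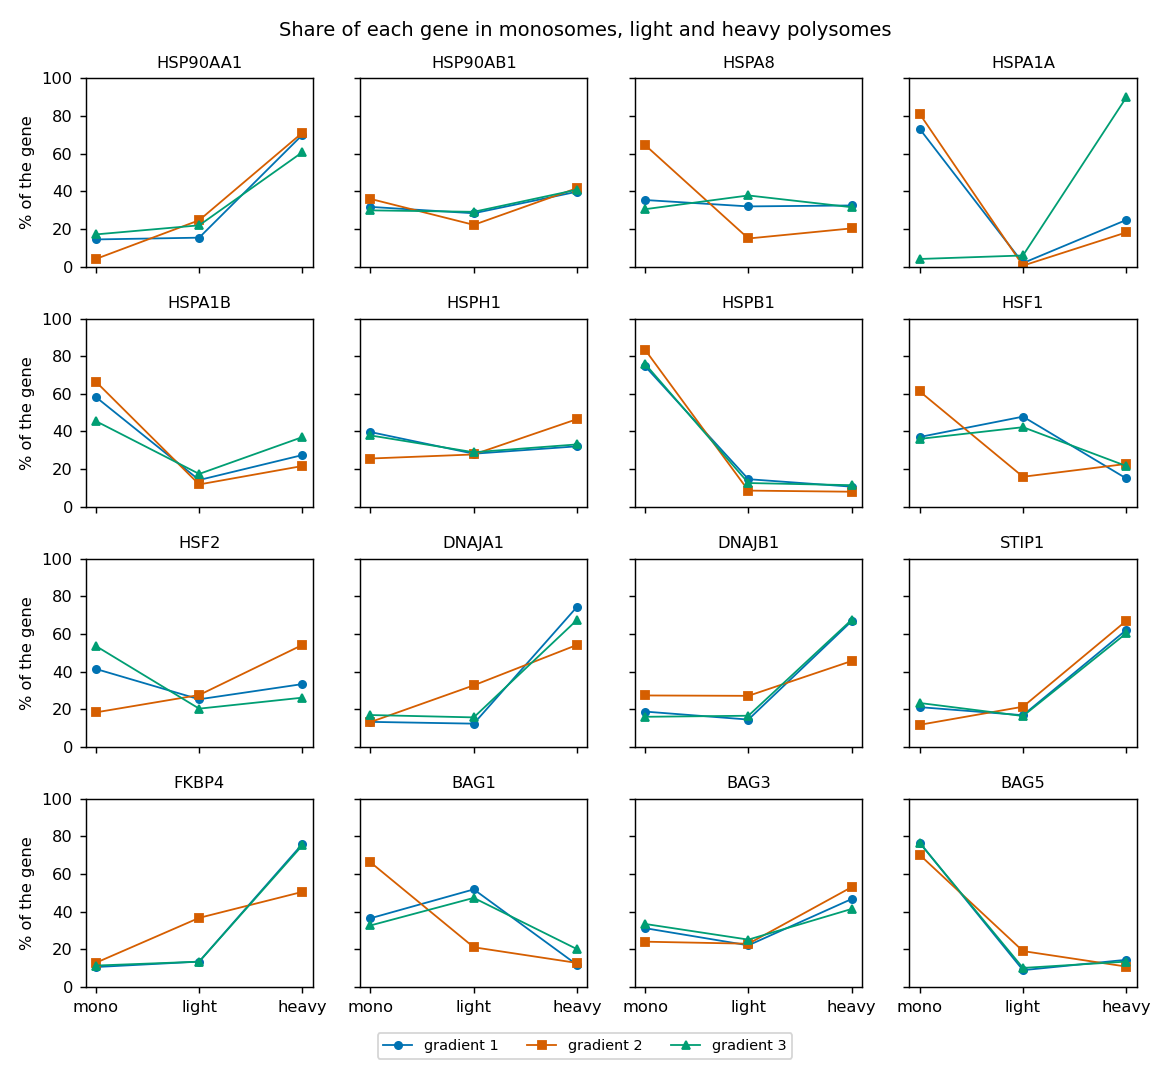
Percentage of each of 16 members in monosomes, light and heavy polysomes (horizontal axis), out of its normalized count over the 3 fractions of a gradient (vertical axis), with a line per gradient. HSP90AA1, DNAJA1, STIP1 and FKBP4 rise to heavy polysomes in each gradient, HSPB1 and BAG5 fall from monosomes in each, and gradient 2 departs from the others for HSF1, HSF2, HSPA8 and BAG1.

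Of the 8 HSP90 cochaperones, 6 (75.0%) had a higher load than the median gene, where 22.0% of all genes did. None had a lower one, where 24.7% of all genes did, and the median of the 8 was 4.27. FKBP4, an immunophilin with peptidyl-prolyl isomerase activity found with HSP90 in steroid receptor complexes, had 10.6%, 12.8% and 11.4% in monosomes, 13.4%, 36.7% and 13.4% in light and 76.0%, 50.5% and 75.2% in heavy polysomes. Gradients 1 and 3 were nearly alike, and in gradient 2 the light share was larger and the heavy share smaller, though still the largest. Its load of 5.0, 4.08 and 4.96 was the highest mean among the members, 4.68 ± 0.52 (SD, n = 3), at percentile 98.9. The difference from the median gene was 0.56 ± 0.08 (SE, adjusted p = 0.00159) in log2. AHSA1, the activator of the HSP90 ATPase, had 10.9%, 15.7% and 6.80% in monosomes, 18.7%, 34.7% and 17.3% in light and 70.4%, 49.5% and 75.9% in heavy polysomes. Its heavy shares did not overlap with its other shares, and its load was 4.80, 4.0 and 5.05, 0.54 ± 0.09 (SE, adjusted p = 0.00205) above the median gene. STIP1 (HOP), which hands clients from HSP70 to HSP90, had 21.1%, 11.7% and 23.3% in monosomes, 16.8%, 21.3% and 16.4% in light and 62.1%, 67.0% and 60.3% in heavy polysomes. STIP1 was steadier over the gradients than FKBP4 and AHSA1, with loads of 4.36, 4.67 and 4.26, and exceeded the median gene by 0.48 ± 0.07 (SE, adjusted p = 0.00166).

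CHORDC1, a cochaperone that binds HSP90 in its nucleotide cycle, had a load of 4.30 ± 0.19 (SD, n = 3). FKBP5, the immunophilin that opposes FKBP4 in steroid receptor complexes, had 4.24 ± 0.53, and FKBP4 exceeded it by 0.11, 0.17 and 0.17 in log2 load in the 3 gradients. CDC37, which brings kinases to HSP90, had 4.09 ± 0.70. UNC45A, a chaperone of myosin, had loads of 3.53, 4.53 and 3.41 and did not pass the test (adjusted p = 0.0627), with gradient 2 far above the others. PTGES3 (p23), which stabilises the closed state of HSP90, was unlike the rest of this role. Light polysomes held its largest share in all 3 gradients, 45.0%, 57.2% and 54.7%, with 12.3%, 17.5% and 13.1% in monosomes and 42.7%, 25.3% and 32.2% in heavy polysomes. Its load was 3.81, 3.12 and 3.43, and it did not pass the test against the median gene (adjusted p = 0.313). PTGES3 had the shortest coding sequence of the members, 483 nt.

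HSP70 cochaperones covered nearly the whole range of the members. Of the 8, 2 (25.0%) had a higher load than the median gene and 2 (25.0%) a lower one. Both shares were near those of all genes, 22.0% and 24.7%, and the median of the 8 was 3.53. HSPBP1, a nucleotide exchange factor of HSP70, had 8.55%, 14.4% and 9.99% in monosomes, 14.2%, 37.6% and 15.9% in light and 77.2%, 48.0% and 74.1% in heavy polysomes. Heavy polysomes held the largest share in every gradient, with a smaller lead in gradient 2, and its load was 5.08, 3.96 and 4.94, 0.55 ± 0.09 (SE, adjusted p = 0.00211) above the median gene. BAG5, a nucleotide exchange factor built of several BAG domains, had 76.7%, 70.2% and 76.5% in monosomes, 8.90%, 19.0% and 10.1% in light and 14.4%, 10.8% and 13.4% in heavy polysomes. Monosomes led by far in each gradient, and its load of 1.85, 1.83 and 1.82 had the smallest spread of any member, 1.83 ± 0.02 (SD, n = 3), at percentile 4.83. Its log2 difference from the median gene was -0.79 ± 0.09 (SE, adjusted p = 0.000562). BAG1, an exchange factor that also links HSP70 to the proteasome, had 36.5%, 66.2% and 32.7% in monosomes, 51.8%, 21.1% and 47.3% in light and 11.7%, 12.7% and 20.1% in heavy polysomes. Heavy polysomes held its smallest share in every gradient, while light polysomes led in gradients 1 and 3 and monosomes in gradient 2. Its load was 2.36, 1.95 and 2.71, below the median gene, with a log2 difference of -0.45 ± 0.11 (SE, adjusted p = 0.0132).

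BAG3, which directs HSP70 clients to selective autophagy and is itself heat-inducible, had 31.2%, 24.0% and 33.4% in monosomes, 22.1%, 23.0% and 25.1% in light and 46.7%, 53.0% and 41.4% in heavy polysomes. Heavy polysomes held the most in each gradient. Its load of 3.67, 4.0 and 3.45 lay above the median gene in each gradient but did not pass the test (adjusted p = 0.0606). BAG1 minus BAG3 was -0.63, -1.03 and -0.35 in log2 load, lower in 3 of 3 gradients. BAG6, which guards membrane proteins on their way to insertion or degradation, had a load of 3.77 ± 0.11 (SD, n = 3) and passed with an adjusted p of 0.0328. ST13 (HIP), which slows the release of clients from HSP70, had 3.83, 3.02 and 4.42. STUB1 (CHIP), the ubiquitin ligase of this system, had 3.74, 2.60 and 3.73, and both ST13 and STUB1 passed the test only in the fit without gradient 2 (adjusted p = 0.00173 and 0.0174, against 0.130 and 0.682 with all gradients). BAG2, an inhibitor of STUB1, had 3.41, 3.37 and 3.26, close to the median gene.

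Fractions were next compared directly, by limma on log2(normalized count + 1) of the 9 libraries, a scale that understates the change of low genes. Between heavy polysomes and monosomes, 20 members were higher in heavy polysomes, where 24.7% of all genes were, and 4 were lower, where 24.4% were. The 20 were the genes with a higher load except BAG6, and also PTGES3 and DNAJC9. The 4 were again HSPB1, BAG5, BAG1 and HSF1. The median difference of the 42 was 0.83, against 0.13 over all genes. HSP90AA1 had normalized counts of 5401, 1741 and 3982 in monosomes and 26118, 30102 and 14123 in heavy polysomes, and the highest difference of the members, 2.74 ± 0.52 (SE, adjusted p = 0.000930). AHSA1, HSPBP1 and FKBP4 followed with 2.60, 2.60 and 2.52. The lowest were HSPB1 and BAG5, the latter at -2.54, then BAG1 at -1.57 and HSF1 at -1.15. Without gradient 2 the counts were 24 and 5, where 31.4% and 30.0% of all genes were called. They were 9 and 2 without gradient 1, where 9.99% and 14.7% of all genes were, and 10 and 4 without gradient 3, where 13.8% and 17.3% were. The calls of CDC37, DNAJA2, DNAJA3, DNAJB1, DNAJB12, DNAJB6, DNAJC9, HSF1, HSPA14, HSPA4 and PTGES3 were lost in each of these 2 fits, and those of BAG1 and DNAJC2 without gradient 1. Their adjusted p-values ran from 0.0545 to 0.440 without gradient 1 and from 0.0592 to 0.300 without gradient 3. With the gradient as a block, BAG6 also passed (adjusted p = 0.0341 against 0.0846).

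Between light polysomes and monosomes 3 members (7.14%) were higher in light polysomes, where 8.47% of all genes were. Another 4 (9.52%) were lower, where 10.2% of all genes were, so both shares were near those of all genes. The 3 were PTGES3, FKBP5 and DNAJB6. PTGES3 had normalized counts of 4530, 6643 and 5112 in monosomes and 16579, 21682 and 21284 in light polysomes, with no overlap, a log2 difference of 1.88 ± 0.43 (SE, adjusted p = 0.00819). For FKBP5 the difference was 1.36 ± 0.37 (SE, adjusted p = 0.0191) and for DNAJB6 1.14 ± 0.37 (SE, adjusted p = 0.0420). The 4 lower ones were HSPB1, BAG5, HSPA1A and HSPA1B. BAG5 had 4026, 3099 and 3825 in monosomes and 467, 841 and 505 in light polysomes, a difference of -2.63 ± 0.35 (SE, adjusted p = 0.000336). Without gradient 1 or without gradient 3 none of the 3 higher calls was kept, with adjusted p-values of 0.131 to 0.313 and 0.126 to 0.252. Of all genes, 1.17% and 3.25% were called higher and lower without gradient 1 and 1.94% and 5.42% without gradient 3. Without gradient 1, 2 members were lower, BAG5 and HSPB1. Without gradient 2, 5 were higher and 5 lower, where 17.3% and 18.1% of all genes were called.

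Between heavy and light polysomes 17 members were higher in heavy polysomes, where 14.7% of all genes were, and 1 was lower, BAG1, where 17.5% were. BAG1 had normalized counts of 2019, 502 and 1670 in light and 457, 304 and 708 in heavy polysomes, which overlapped through gradient 2, a log2 difference of -1.37 ± 0.48 (SE, adjusted p = 0.0426). STIP1 had 636, 1113 and 499 in light and 2349, 3494 and 1839 in heavy polysomes, with no overlap, a difference of 1.80 ± 0.38 (SE, adjusted p = 0.00722). BAG3 passed here with 1.0 ± 0.31 (SE, adjusted p = 0.0250) and UNC45A with 1.37 ± 0.37 (SE, adjusted p = 0.0150), although neither passed against monosomes. HSPA1A had the widest difference, 3.95 ± 1.06 (SE, adjusted p = 0.0143), on 3 to 22 reads in the light polysome libraries. PTGES3 had a difference of -0.67 (adjusted p = 0.234). These calls depended on which gradients were used. All 18 were kept without gradient 2, where 25 members were higher and 2 lower and 29.9% and 30.2% of all genes were called. Without gradient 1, 0 members and 0 of all genes passed. Without gradient 3 only HSPA1A did, the single call over all genes. Those 2 fits hold the light polysome library of gradient 2 that correlated best with heavy polysomes, and its part in the lost calls was not tested. With the gradient as a block, BAG6 and HSPA1B also passed (adjusted p = 0.04995 and 0.0481, against 0.112 and 0.147).

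**Figure D4:**
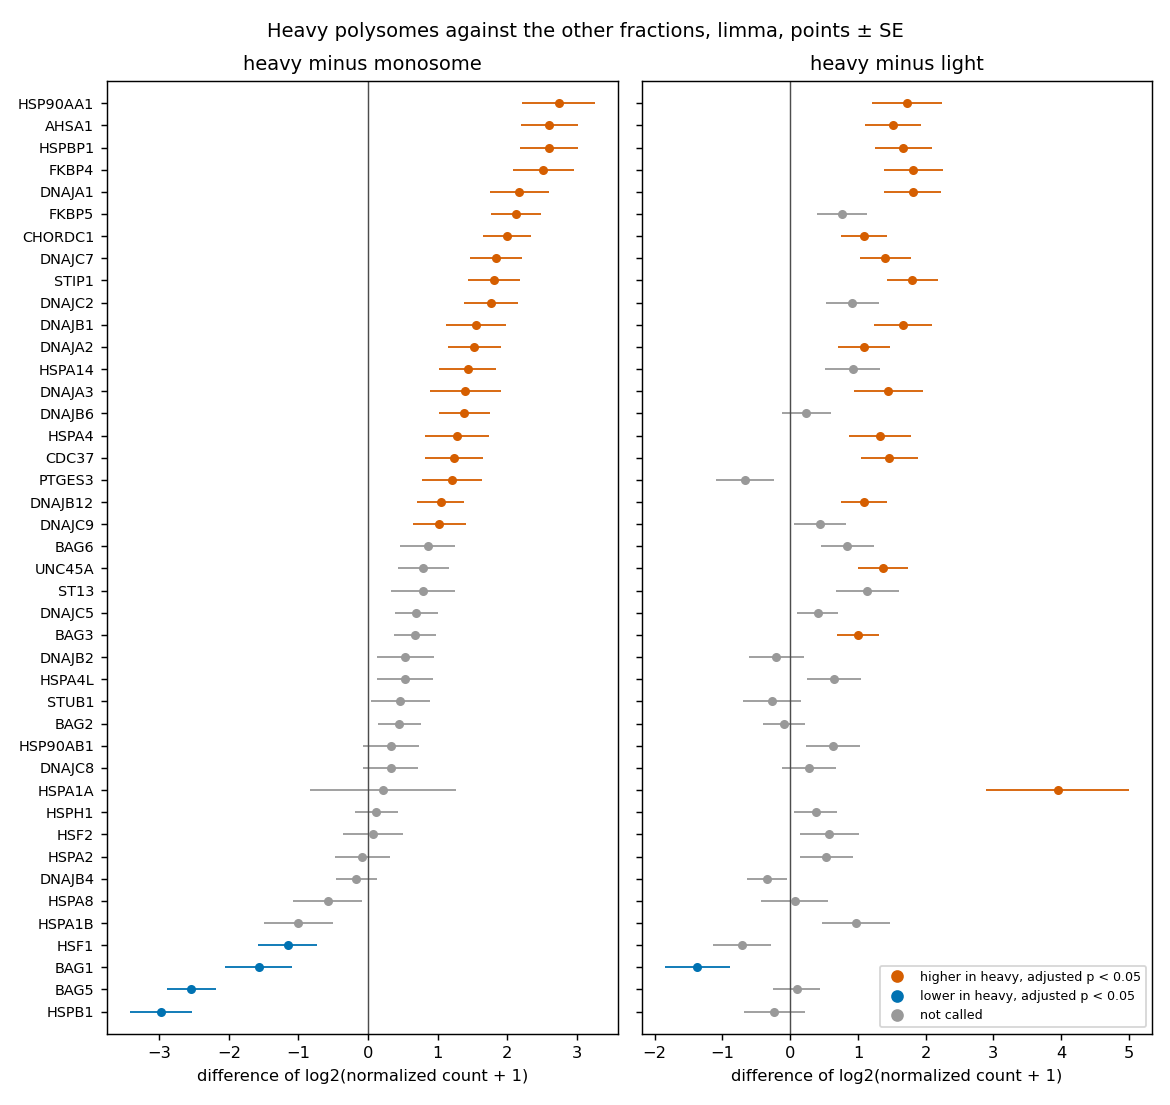
Differences of log2(normalized count + 1) between heavy polysomes and monosomes (left) and between heavy and light polysomes (right) for the 42 members, each point with its standard error. Orange points passed the limma test as higher in heavy polysomes and blue points as lower, so that HSP90AA1 leads the left panel, HSPB1 ends it, and HSPA1A has the widest bars.

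By the fraction with the largest share, 19 members were led by heavy polysomes in all 3 gradients, where 21.0% of all genes were. Light polysomes led in all 3 for PTGES3 and DNAJB2, where 9.03% of all genes did so, and monosomes for HSPB1, BAG5 and HSPA1B, where 17.2% did. The other 18 members had a different leading fraction in at least 1 gradient. The members' median share in light polysomes lay below that of all genes in each gradient. It was 22.8%, 27.7% and 23.4% in gradients 1, 2 and 3, while that of all genes was 30.3%, 31.0% and 30.3%. Over the 42 members, loads correlated between gradients with r = 0.690 (1 and 2), 0.770 (1 and 3) and 0.461 (2 and 3), and over all genes with 0.724, 0.869 and 0.640. These correlations are across genes, which are not independent replicates.

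Coding length, which the choice of members did not use, was next set beside load. The members' median coding length was 1359 nt, against 1407 nt over 12712 genes with a length, and the Spearman correlation of length with load was 0.04 over 42 members and 0.25 over all genes. Members were then set against genes of like length in 6 equal groups. From 1044 to 1407 nt 8 of 9 members lay above their group's median, as did 8 of 10 from 687 to 1044 nt. In the shortest group 3 of 4 did, from 1407 to 1869 nt 6 of 8, and in the longest group 2 of 2. Of the 9 members from 1872 to 2751 nt, which are both HSP90 genes and all HSP70 and HSP110 genes except HSPA14, 4 did. BAG5 (1344 nt) and BAG1 (1038 nt) were far below their groups. HSPB1 (618 nt) was below the median of the shortest group, 2.55. When each gene was compared with genes of its own length group, 22 members had a higher load and 5 a lower one, where 24.8% and 24.4% of all genes did. BAG6 lost its call, and PTGES3 gained one with an adjusted p of 0.00128, as did BAG2, DNAJC5 and DNAJC9. HSPA1B became lower (adjusted p = 0.0468). In the annotated leaders an ATG upstream of the start codon was present in 19 of the 42 members (45.2%), and in 53.1% of all genes. It was present in 9 of the 19 members with a higher load and in 3 of the 4 with a lower one. The remaining lower one, BAG1, has no annotated leader and so could not hold one.

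**Figure D5:**
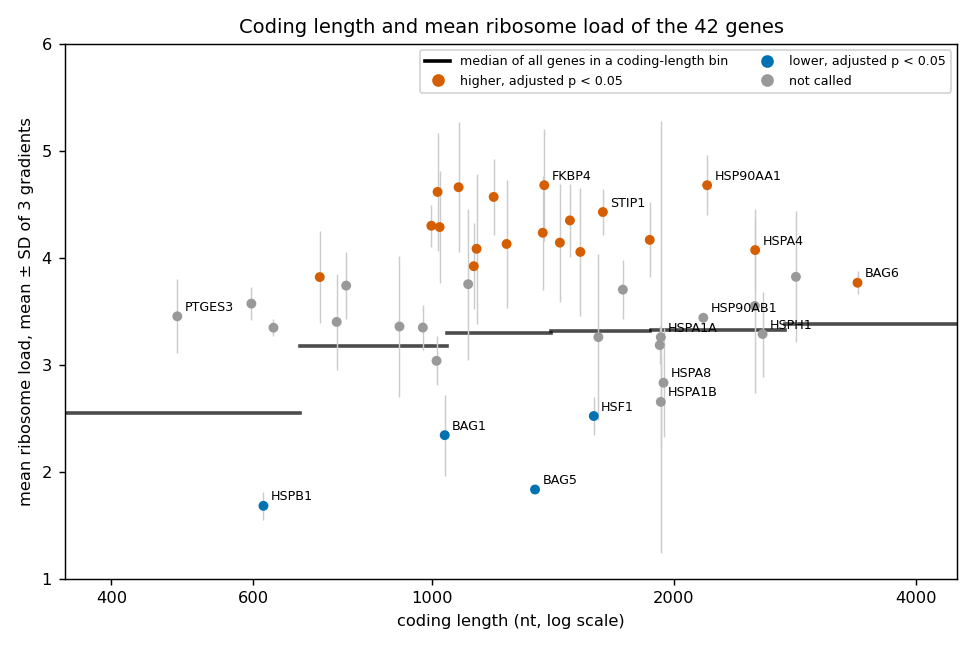
Coding length (nt, log scale, horizontal axis) against mean ribosome load (vertical axis, mean ± SD of 3 gradients) of the 42 members, with black bars at the median of all genes in each of 6 coding-length groups. Orange points had a higher and blue points a lower load than the median gene by limma. BAG5 and HSPB1 lie under the bars of their groups and PTGES3 above its bar.

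Levels of the members were compared as normalized counts per kilobase of the annotated transcript, averaged over the 9 libraries. PTGES3 had the highest level (6578), followed by HSPB1 (4053), HSP90AA1 (3379), HSPA8 (2316), DNAJC8 (2261), STUB1 (2143) and HSP90AB1 (2081). The most abundant members thus included the lowest load, HSPB1, and one of the highest, HSP90AA1. At the other end HSPA2 had 9.07, HSPA4L 23.9 and HSPA1A 57.1. HSPA1B stood at 635. Since a library is scaled to its own typical gene, such a mean weights the 3 fractions equally and is not the level in the cell.

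Other chaperone systems gave a frame for the cytosolic genes. Of all genes, 22.0% had a higher load than the median gene by the test and 24.7% a lower one. Of the 8 subunits of the cytosolic chaperonin, the ring that folds actin and tubulin, 7 had a higher load than the median gene and none a lower one. Their median was 4.14, from CCT3 (3.48) to CCT7 (4.59). Prefoldin, which delivers clients to the chaperonin, had 1 of 6 subunits higher (16.7%, near the share of all genes) and 3 lower (50.0%). Its median was 2.63, from PFDN4 (1.74) to PFDN6 (3.92). Of 14 endoplasmic reticulum chaperones 11 were higher and none lower, with a median of 4.23, from DNAJB9 (3.07) to PDIA3 (4.89). Of 9 mitochondrial chaperones 5 were higher and 1 lower, with a median of 3.89, from DNAJC19 (1.41) to TRAP1 (4.61). The members' median of 3.75 lay between prefoldin and the other lists, and the differences between lists were not tested.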

How the data were processed

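The analysis used the 9 vehicle libraries, each fraction with 3 replicates. Per the submitters' processing notes, reads were counted with featureCounts on GRCh38. The aligner and counting options, strand included, are not stated in those notes or the labels. The signal deposited by the authors per library is a gene count divided by a size factor, and whole reads were recovered for 100% of values at a tolerance of 0.01 reads. The percent deposited by the authors is the gene's share over the 3 fractions of a gradient, recomputed to within 5.5e-08. Mean ribosome load, a score deposited by the authors, was recomputed to within 4.61e-09 with weights of 1, 2.5 and 6 solved from the table. ERCC spike-ins, added by the authors per the labels, were not used here.

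Of 13661 genes, 12720 had a mean of at least 10 reads and reads in each gradient, and 941 were removed. Limma 3.58.1 (trend) in R 4.3.3 tested log2 load minus the median gene, and log2(normalized count + 1) with fraction as the only term, both over all genes kept with a Benjamini-Hochberg adjusted p of 0.05. The design had allowed for counts; since the values were normalized, edgeR 4.0.16 and DESeq2 1.42.0 on the recovered reads were alternatives. Other alternatives were a replicate block, a pseudocount of 10, no filter, TMM scaling, other weights, centring by the mean gene or within coding-length groups, no trend, and leaving out each replicate. The scripts were tested on simulated data that held no differences between gradients, so that test does not cover such differences. The labels give each replicate number as a batch number too, which pairs the fractions of a gradient. Deviations of same-numbered libraries from their fraction means correlated with r from -0.54 to 0.39. Those of differently numbered libraries correlated with r from -0.45 to 0.39. The pairing thus rests on the labels and is not seen in these correlations. Transcripts, coding lengths and sequences came from GENCODE release 29 on GRCh38. The gene list was matched to symbols; the row of IFT25, the current symbol of HSPB11, was not counted. Members, roles, other lists and genes given in full were chosen with earlier results of these data known. The latter are HSP90AA1, HSP90AB1, HSPA1A, HSPA1B, HSPA8, HSPH1, HSPB1, HSF1, HSF2, DNAJA1, DNAJB1, STIP1, BAG1, BAG3 and the 4 highest and 4 lowest by load. PTGES3 was added to them after its values were seen.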

Additional observations from a re-analysis of the deposited data

How the results depend on the processing

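These counts cover load and heavy over monosome for every member, and for the 2 comparisons with light polysomes the members that passed and PTGES3, BAG6 and HSPA1B for heavy over light. Of 984 such values under an alternative, 841 kept their direction and side of the threshold, 91 fell under the threshold, 29 rose past it and 23 changed sign. Leaving out 1 replicate gave 11 to 23 members with a higher load, 9 to 24 higher and 2 to 5 lower in heavy polysomes than monosomes, 0 to 5 higher and 2 to 5 lower in light polysomes than monosomes, and 0 to 25 higher and 0 to 2 lower in heavy than light polysomes. The shares of all genes called in these fits are given with each comparison above. DESeq2 gave 5 members higher in light polysomes than monosomes, against 3, where 10.5% of all genes were, against 8.47%. With the replicate block 21 members were higher and 5 lower for heavy over monosome, where 24.8% and 24.5% of all genes were. For light over monosome the counts were 3 and 4, where 8.40% and 10.7% of all genes were called. For heavy over light they were 19 and 1, where 15.5% and 18.3% were. Beyond BAG6 and HSPA1B the block changed no call. In every alternative 14 of 23 calls of load, 11 of 24 of heavy over monosome, 2 of 7 of light over monosome and 0 of 18 of heavy over light were kept. The cause of sign changes was not tested.

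Among these values, signs changed only for genes that had not passed. In log2 load HSF2 came to -0.041 within coding-length groups and -0.024 with weights 1, 2 and 3, HSPA2 to -0.056 and -0.032, HSPH1 to -0.015 within the groups, and HSPA1A to 0.84 by the percentage in heavy polysomes. Leaving out a replicate gave ranges of -0.16 to 0.16 (HSF2), -0.60 to 0.17 (HSPA1A), -0.039 to 0.037 (HSPA2), -0.035 to 0.26 (HSPA4L), -0.047 to 0.10 (HSPH1) and -0.023 to 0.24 (STUB1). For heavy over monosome HSPA1A came to -0.71 with edgeR, -0.75 with DESeq2 and -0.96 summed with HSPA1B. The ranges were -0.33 to 0.055 (DNAJB4), -0.67 to 0.63 (HSF2), -1.85 to 1.39 (HSPA1A), -0.28 to 0.058 (HSPA2), -0.18 to 1.01 (HSPA4L) and -0.25 to 0.33 (HSPH1). Depth limits HSPA1A and HSPA2 most, with as few as 3 and 20 reads in a library.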

Other observations

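IFT25, a protein of intraflagellar transport, is the current symbol of HSPB11, which the gene list held under its older name. Its shares were 24.0%, 31.3% and 19.7% in monosomes, 49.2%, 47.8% and 52.0% in light and 26.8%, 20.9% and 28.3% in heavy polysomes. Light polysomes held the most in each gradient. Its load was 3.01 ± 0.22 (SD, n = 3) and did not pass limma's test against the median gene (adjusted p = 0.535).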
